A study of Mus musculus with 8 samples.

Results

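Dermatopontin (gene symbol Dpt) is a small, tyrosine-rich protein of the extracellular matrix. It binds decorin, the best known of the small leucine-rich proteoglycans, and is known to speed the assembly of collagen fibrils. It is also known to bind fibronectin and TGF-beta. The small leucine-rich proteoglycans are matrix proteins built of leucine-rich repeats, most of them carrying chains of dermatan, chondroitin or keratan sulfate, and they set the width and spacing of collagen fibrils. In the liver, matrix of this kind is laid down mainly by stellate cells, pericyte-like cells that store vitamin A, once injury has activated them. The members were chosen by the lower Dpt count in knockout than in floxed control libraries, seen earlier in these data, to which the decorin family was added by name: 9 genes in all (Dpt, Dcn, Bgn, Lum, Fmod, Ogn, Prelp, Omd and Aspn). Of these 9 names, 1 (Dpt, ENSMUSG00000026574) was among the 1933 gene rows shared by the count tables, and the other 8 genes were not analysed here. The rows with a symbol all lie on chromosome 1 and cover only part of it: Fmod and Prelp also lie there but were not among the shared rows. The values below therefore describe Dpt and those chromosome 1 genes around its pathway that the rows hold, not the family.

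Dpt was measured by RNA sequencing in 8 libraries that the labels describe as hepatic stellate cells from MASH liver, the steatohepatitis that accompanies metabolic dysfunction. The KO group holds 4 libraries from male AREL1HSC-KO mice, named for loss of Arel1, a ubiquitin ligase gene, in stellate cells. The fl/fl group holds 4 libraries from male AREL1fl/fl mice, which carry the floxed allele. Mice of both genotypes began a Western diet (21% fat, 20% protein, 50% carbohydrate) at 4 weeks of age, ate it for 20 weeks and were killed at week 24. The study compares stellate cell transcripts of the genotypes on this diet. The Cre line behind the deletion and whether each library is 1 mouse are not stated in the labels. The spread behind each p-value is that between libraries and could be technical. Groups follow the titles, since the genotype entry of 3 of the 4 KO libraries names the gene with a digit other than 1.

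Gene-assigned reads numbered 19271004 to 25165289 per KO library and 17619387 to 19663030 per fl/fl library. Replicate 4 of fl/fl stood apart: between its counts and those of each other fl/fl library, chi-square divided by its degrees of freedom was 3.37 to 3.53, while it was 1.39 to 1.79 between KO libraries and 1.39 to 1.82 between the remaining fl/fl libraries. The share of unmapped reads was 1.44% to 1.58% in KO and 1.04% to 1.19% in fl/fl, so it separated the groups. Reads outside annotated features (3.93% to 4.14% in KO, 4.30% to 4.34% in fl/fl) and the TMM scaling factors (1.004 to 1.02 in KO, 0.9804 to 0.9955 in fl/fl) separated them too, and the part of these measures in the results below was not tested. No batch or date is labelled, so a batch that follows genotype cannot be told apart from it. Arel1 was not analysed here, so the genotypes were not checked on the targeted gene. No marker on the stellate cell list was among the shared rows, so the labelled cell type was not checked either.

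Dpt lies on the forward strand of mouse chromosome 1, with 1 transcript of 4 exons and 1724 exon bases in GENCODE M21. The RefSeq window around its annotated start (GRCm38.p6, forward strand, chr1:164796413-164796712, 250 bases before the start and 50 from it) is shown as the identity of the locus. The counts do not measure the activity of this window. Capitals mark its single match to TATAAA, the letters of a TATA box.
Dpt: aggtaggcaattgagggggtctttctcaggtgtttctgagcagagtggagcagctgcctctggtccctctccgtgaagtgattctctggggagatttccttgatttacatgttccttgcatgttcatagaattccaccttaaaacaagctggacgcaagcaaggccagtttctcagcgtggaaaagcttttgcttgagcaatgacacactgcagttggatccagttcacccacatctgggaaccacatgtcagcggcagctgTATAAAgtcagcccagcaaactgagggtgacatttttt
The TATAAA match begins 12 bases after the annotated start. On either strand, these letters occur in 13.6% of the 32851 RefSeq windows of the same length. No match was found on either strand to TGANTCA, the letters of an AP-1 site (7.81% of windows), to CATTCC, those of a TEAD site (14.7%), or to GTCTAGAC, the SMAD palindrome (0.213%). These motifs do not overlap each other in this window, and a match or its lack describes the letters only.

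Dpt was lower in every KO library than in any fl/fl library. The KO libraries held 163, 176, 138 and 133 Dpt reads in replicates 1 to 4, against 376, 358, 356 and 256 reads in fl/fl. As CPM, which here scales the reads to the gene-assigned total of each library multiplied by its TMM factor, Dpt stood at 6.667, 6.857, 6.700 and 6.823 CPM in KO, and at 19.35, 20.40, 20.58 and 14.65 CPM in fl/fl. The groups did not overlap, with 7.795 CPM between the highest KO and the lowest fl/fl library. Dpt averaged 6.762 ± 0.0922 CPM in KO and 18.75 ± 2.78 CPM in fl/fl (SD, n = 4 each). The log2 fold change was -1.47 (SE 0.094), which is 63.9% lower in KO. In bulk RNA, fewer cells that express Dpt and less Dpt RNA per cell cannot be told apart.

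Dpt was picked with this contrast known, so its difference is a description and carries no test. In the fit over the 420 genes that passed the filter on low counts, 37.6% of genes were called at an adjusted p under 0.05 (quasi-likelihood test of edgeR), 19.3% lower and 18.3% higher in KO, and 31.4% of genes had groups that did not overlap. Dpt was among the genes called lower, and since the choice used that contrast nothing is read from the call. It passed the filter through both groups. By log2 fold change Dpt was the third lowest of the 420 genes. Aox1, an aldehyde oxidase gene, was lower in this order at -2.14, and so was the receptor gene Gpr35, which averaged 0.268 CPM in KO and 1.03 CPM in fl/fl. Below Dpt's size of change came Tmeff2 at -1.20 on the log2 scale. Tmeff2 was also low in level, at 0.439 CPM in KO and 0.998 CPM in fl/fl, and its groups overlapped. By mean level Dpt was 282nd of the 420 genes.

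**Figure D1:**
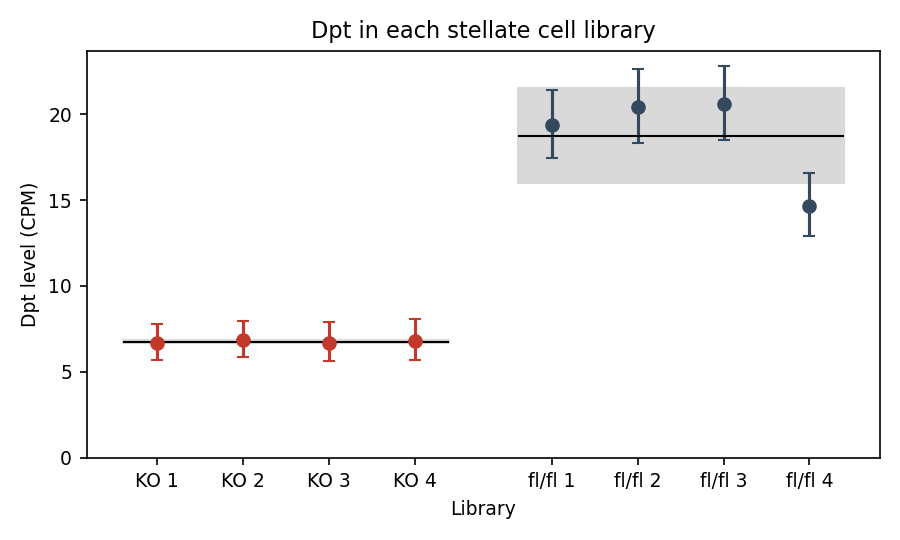
Dpt level in CPM (vertical axis, from 0) in each KO and fl/fl library (horizontal axis). Points are libraries with 95% exact binomial intervals, which cover counting error only, and lines with grey bands are group means ± SD (n = 4 each). All 4 KO points lie near 6.762 CPM, below the lowest fl/fl point at 14.65 CPM.

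The SD of Dpt was smaller among KO than among fl/fl libraries, a difference that was not tested. The KO libraries had an SD of 0.0922 CPM, below the 0.551 CPM that counting error alone gives at this number of reads. The fl/fl libraries had an SD of 2.78 CPM, against 1.02 CPM from counting error. The 95% exact binomial interval ran from 5.629 CPM at its lowest end to 8.086 CPM at its highest over the KO libraries, and from 12.91 to 22.83 CPM over the fl/fl libraries. PCR copies are not independent molecules, so these intervals cover counting error only.

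Most of the fl/fl spread lay in replicate 4. That library stood at 14.65 CPM, with an interval of 12.91 to 16.56 CPM, while fl/fl replicates 1 to 3 averaged 20.11 ± 0.667 CPM (SD, n = 3). Its level lay 40.9% of the way from those 3 libraries to the KO mean. Without it the log2 fold change of Dpt was -1.57, a level 66.3% lower in KO. Leaving out any other library gave -1.48 to -1.43.

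Dpt reads were split about equally between the strand columns, although the labels name a stranded kit. The same held over all shared rows, with a reverse-to-forward ratio of 0.991 to 1.02 in KO and 0.985 to 1.01 in fl/fl. On the forward column Dpt averaged 3.535 ± 0.245 CPM in KO and 9.152 ± 1.95 CPM in fl/fl (SD, n = 4 each). On the reverse column it averaged 3.227 ± 0.267 CPM in KO and 9.595 ± 0.886 CPM in fl/fl. The log2 fold change was -1.36 from forward reads and -1.58 from reverse reads, so either set of reads gave a level under that of fl/fl. The forward share of Dpt reads ran from 47.4% to 55.2% in KO and from 42.6% to 51.3% in fl/fl, with fl/fl replicate 4 lowest.

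The antisense gene Gm32569 overlaps the span of Dpt on the opposite strand in GENCODE M21, but the exons of these genes share 0 bases there. Gm32569 held 1 read over the 8 libraries. The forward and reverse Dpt reads summed to 1956, the same number as the either-strand reads, and they matched exactly in each library. No read of Dpt was therefore set aside for a gene on the other strand.

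Ratios of Dpt to other matrix genes within a library do not depend on how libraries are scaled. Col3a1 and Col5a2 encode chains of the fibrillar collagens III and V, and Col6a3 a chain of collagen VI, which forms beaded microfibrils. Per 1000 Col3a1 reads there were 15.23, 15.61, 15.24 and 15.54 Dpt reads in the KO libraries, against 39.47, 43.02, 40.67 and 31.15 in the fl/fl libraries. Per 1000 Col5a2 reads there were 11.41, 11.59, 11.26 and 11.63 Dpt reads in KO, against 28.57, 30.50, 30.25 and 22.01 in fl/fl. For both collagens the groups did not overlap, and fl/fl replicate 4 was the lowest fl/fl library.

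The ratio to Col6a3 behaved differently in that library. Per 100 Col6a3 reads there were 51.26, 55.00, 51.88 and 53.41 Dpt reads in KO, against 86.84, 89.28, 90.36 and 87.07 in fl/fl. Here fl/fl replicate 4 lay among the other fl/fl libraries, because Col6a3 was lower there too (16.83 CPM, against 22.28 to 22.86 CPM). The mean ratio was 52.89 ± 1.67 in KO and 88.39 ± 1.71 in fl/fl (SD, n = 4 each), so the KO ratio was 0.598 of that in fl/fl.

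**Figure D2:**
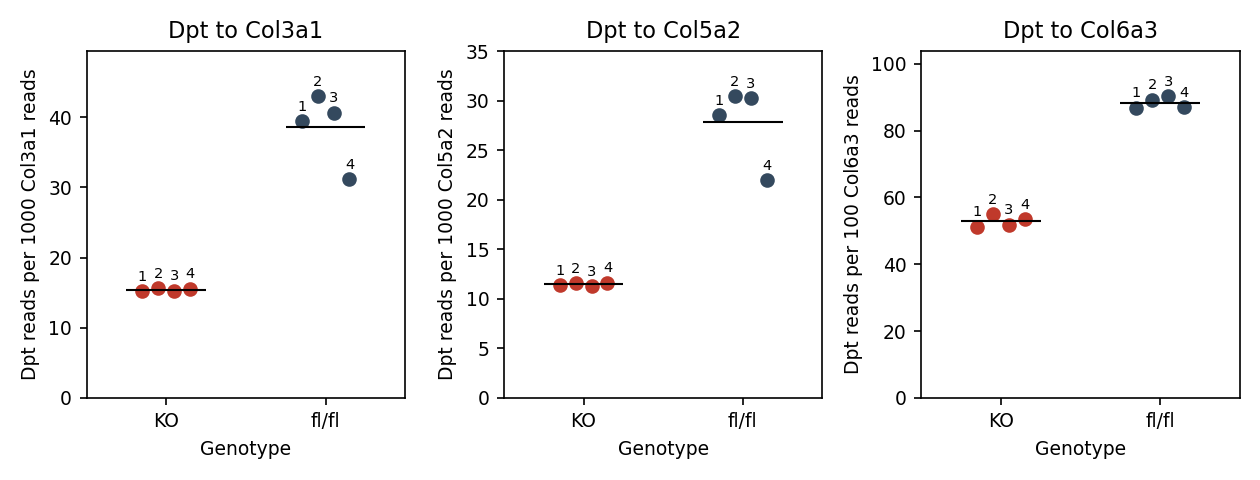
Dpt reads per 1000 Col3a1 reads, per 1000 Col5a2 reads and per 100 Col6a3 reads (vertical axes, from 0) in KO and fl/fl libraries (horizontal axes). Numbered points are replicates and lines are means (n = 4 each). All KO points lie below all fl/fl points, and fl/fl replicate 4 is apart from its group in the first 2 panels but not in the third, where it stands at 87.07.

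The genes that surround Dpt in matrix assembly were described from 8 lists of 126 genes. Of these 126, 14 were in the rows and 9 passed the filter on low counts. By the same test, 6 of the 9 fell and 1 rose in KO, where the shares over all 420 genes were 19.3% lower and 18.3% higher. The lists were chosen with earlier results of these data known. The counts, and the p-values of list genes given below, therefore describe these genes and carry no test of the lists. The median log2 fold change was -0.14 over the 9 genes and 0.0034 over all 420. The lists of keratan sulfate enzymes, of proteases that cleave these proteoglycans and of receptors for decorin and biglycan had no gene in the rows. The calls of all 420 genes split into 77 higher and 81 lower with TMM scaling, 120 and 52 with upper-quartile scaling, and 100 and 65 with library totals alone. The median log2 fold change of the 420 genes was 0.0545 with upper-quartile scaling and 0.0355 with library totals alone.

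Among other small leucine-rich proteoglycans, 1 of 10 was in the rows. This was Optc (opticin, a proteoglycan known from the eye), which lies at the limit of detection here. It stood at 0.123 to 0.308 CPM in KO and at 0.116 to 0.463 CPM in fl/fl, with 21 reads over the KO libraries and 20 over the fl/fl libraries. The groups overlapped, and the gene did not pass the filter.

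Of the 16 collagens listed, 5 were in the rows, and the 3 that passed the filter fell in KO. Over all 420 genes, 19.3% were called lower and 31.4% had groups that did not overlap. Col6a3 fell by 39.7%, to 12.79 ± 0.236 CPM in KO against 21.19 ± 2.92 CPM in fl/fl (edgeR adjusted p = 1.03e-07, n = 4 each). Col5a2 fell by 12.4% and Col3a1 by 9.52% (edgeR adjusted p = 2.56e-08 and 2.04e-05), with groups that did not overlap in either gene. Col9a1, a chain of cartilage collagen, had 1 read in KO and 0 in fl/fl, and Col19a1 had 0 reads in all libraries.

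Levels can be compared between genes per kilobase of exon, with lengths taken from GENCODE M21, whose release may differ from the one behind the counts. On that scale Dpt stood at 3.922 CPM per kilobase in KO and 10.88 in fl/fl. Col5a2 stood at 61.46 in KO and 70.17 in fl/fl, and Col3a1 at 44.73 and 49.43. Col6a3 stood lower than Dpt in both groups, at 1.069 CPM per kilobase in KO and 1.771 in fl/fl. Dpt was thus the weaker transcript beside the fibrillar collagens and the stronger one beside Col6a3.

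Qsox1, an oxidase that introduces disulfide bonds into secreted matrix proteins, was the 1 gene of the 24 fibril assembly genes that passed the filter. It fell by 22.9%, to 43.72 ± 0.439 CPM in KO against 56.72 ± 2.72 CPM in fl/fl (edgeR adjusted p = 1.77e-08, n = 4 each). Colgalt2, a collagen galactosyltransferase, had 1 read in KO and 2 in fl/fl. For Qsox1, 15.2% of the reads in the strand columns were set aside in the either-strand count for a gene on the other strand, so its level is uncertain.

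Enzymes that build the glycosaminoglycan chains of decorin and biglycan were represented by 3 of 27 genes, of which 2 fell. The share called lower over all 420 genes was 19.3%, and 31.4% had groups that did not overlap. Dsel, an epimerase-like gene of the dermatan sulfate pathway, fell by 18.7%. It stood at 11.53, 10.44, 9.905 and 11.39 CPM in KO, against 14.00, 13.51, 13.70 and 11.96 CPM in fl/fl (edgeR adjusted p = 0.00293, n = 4 each). The groups did not overlap, and fl/fl replicate 4 was again the fl/fl library nearest to KO. Fam20b, the kinase that phosphorylates xylose in the linker between core protein and chain, fell by 7.28%, to 88.51 ± 3.11 CPM in KO against 95.57 ± 1.55 CPM in fl/fl (edgeR adjusted p = 0.00726). Uxs1, which makes the UDP-xylose that starts the linker, did not pass the test (63.71 ± 0.875 CPM in KO and 62.59 ± 2.46 CPM in fl/fl, edgeR adjusted p = 0.632, n = 4 each).

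The call for Fam20b was lost with upper-quartile scaling, library totals alone or reverse-strand counts (edgeR adjusted p = 0.145, 0.0586 and 0.145), and over 17 alternatives it spanned 0.000783 to 0.145. The call for Dsel was lost with reverse-strand counts (edgeR adjusted p = 0.121, the highest of values that began at 4.58e-05). For Fam20b, 12.5% of the reads in the strand columns were set aside for a gene on the other strand, and for Dsel 0 reads were.

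Among the TGF-beta family, whose activity decorin and dermatopontin are known to modify, 3 of 15 listed genes were in the rows. Inhbb, which encodes the beta-B chain of activins and inhibins, rose 1.83-fold at a low level. It stood at 1.391, 1.753, 1.602 and 2.411 CPM in KO, against 0.9777, 1.197, 0.6359 and 1.030 CPM in fl/fl (edgeR adjusted p = 0.00443, n = 4 each). The groups did not overlap, with 159 reads over the KO libraries and 69 over the fl/fl libraries. Its call was lost with reverse-strand counts (edgeR adjusted p = 0.079, the highest over 17 alternatives, the lowest being 0.000817). Tgfb2, a TGF-beta ligand, did not pass the test (8.157 ± 0.977 CPM in KO and 7.737 ± 0.873 CPM in fl/fl, edgeR adjusted p = 0.64, n = 4 each). Mstn (myostatin), which decorin is known to bind, had 0 reads in all libraries.

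**Figure D3:**
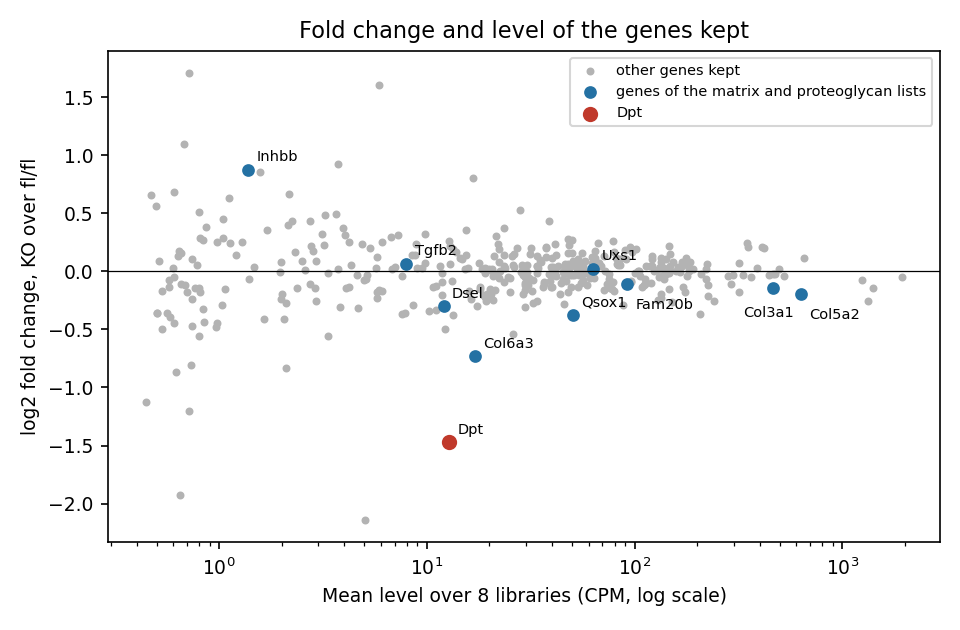
Log2 fold change of KO over fl/fl (vertical axis) against mean CPM over the 8 libraries (horizontal axis, log scale) for the 420 genes that passed the filter. Dpt is red, the 9 genes of the matrix and proteoglycan lists are blue and the others grey. Dpt lies at -1.47, below all 9 listed genes, of which Col6a3 is the lowest at -0.73 and Inhbb the highest at 0.87.

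The profile of Dpt over the 8 libraries was set beside those of 320 other genes with a mean of at least 5 CPM. Likeness was the root mean square difference of log2 CPM, each gene centred on its own mean but not scaled. A small value thus marks a profile like that of Dpt in the size of the change as well as its pattern. Among the smallest values were 0.372 for Col6a3, 0.383 for Aox1, 0.471 for Sema4c, a semaphorin gene, and 0.553 for Mr1, an antigen-presenting molecule related to MHC class I. The median over the 320 genes was 0.748. The next gene after Mr1 stood at 0.554, so these could hardly be told apart. Mr1 fell by 23.0% in KO, against 63.9% for Dpt, so its profile was far flatter than that of Dpt. The measure uses the same libraries as the contrast, so the step between genotypes and the place of fl/fl replicate 4 in these genes restate how they were picked. Aox1 reached the 5 CPM mean through fl/fl, at 1.835 CPM in KO and 8.206 CPM in fl/fl.

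The values of these genes are given as a description. Aox1 stood at 2.086, 2.065, 1.699 and 1.488 CPM in KO, against 9.365, 8.891, 8.788 and 5.781 CPM in fl/fl. Sema4c ran from 20.66 to 21.70 CPM in KO and from 28.90 to 31.63 CPM in fl/fl. Mr1 ran from 10.88 to 12.35 CPM in KO and from 14.59 to 15.62 CPM in fl/fl.

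**Figure D4:**
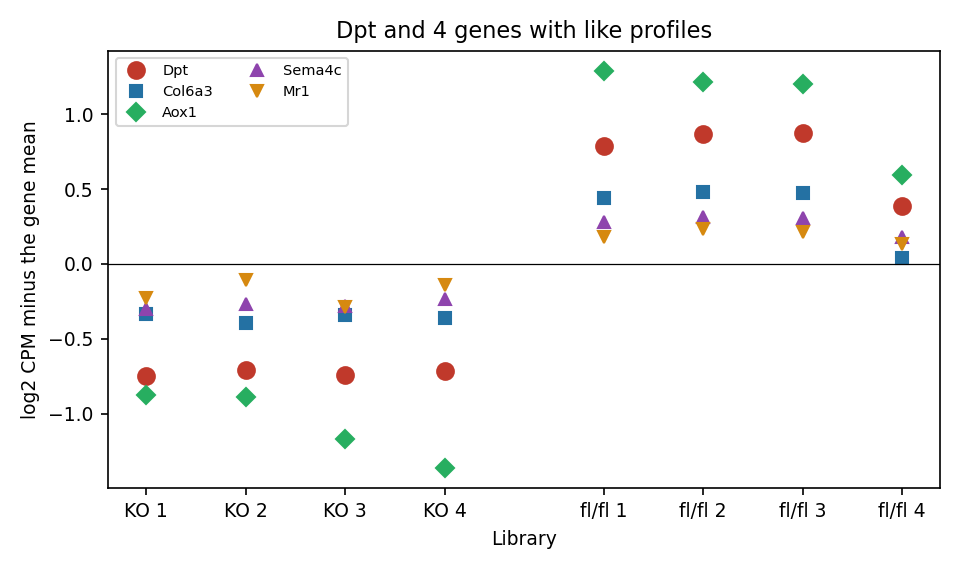
Log2 CPM minus the mean of the gene (vertical axis) in each KO and fl/fl library (horizontal axis) for Dpt, Col6a3, Aox1, Sema4c and Mr1. Each symbol is 1 gene in 1 library. For all 5 genes the KO values lie below the fl/fl values, and fl/fl replicate 4 is the lowest fl/fl library, at 14.65 CPM for Dpt.

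Dpt is also known as a marker of universal fibroblasts, a type that a stellate cell preparation can hold. Of 15 markers listed for such fibroblasts, portal fibroblasts and mesothelium, 2 were in the rows. The defining gene Pi16 was not analysed here. Cd34, a surface marker of such fibroblasts that endothelial cells share, stood at 84.61 ± 1.83 CPM in KO and 81.59 ± 3.14 CPM in fl/fl and did not pass the test (edgeR adjusted p = 0.245, n = 4 each). With upper-quartile scaling it was called higher in KO (log2 fold change 0.10, edgeR adjusted p = 0.0213), and it was not called under the other 16 of 17 alternatives. For Cd34, 20.7% of the strand-column reads were set aside for a gene on the other strand. Ackr3, a chemokine receptor gene, had 2 reads in KO and 2 in fl/fl. Their summed level ran from 83.46 to 87.31 CPM in KO and from 79.44 to 86.24 CPM in fl/fl, and its part in the Dpt difference was not tested.

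Markers of other liver cells in the rows were near 0. The 5 hepatocyte markers of 14 summed to 0.286 to 0.701 CPM in KO and 0.343 to 0.627 CPM in fl/fl, with C4bp at 0 reads. The 5 leukocyte markers of 18 summed to 0.0818 to 0.410 CPM in KO and 0.057 to 0.566 CPM in fl/fl, with Xcl1 and Cd55 at 0 reads. The 2 endothelial markers of 9 reached at most 0.146 CPM in KO and 0.057 CPM in fl/fl. The 2 cholangiocyte markers of 8 summed to 0 CPM in KO and at most 0.0578 CPM in fl/fl, with Pigr at 0 reads. The lists of stellate cells, of smooth muscle and of erythroid cells had no gene in the shared rows.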

How the data were processed

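The files deposited by the authors give raw counts of reads by gene, 1 file a library, as STAR's gene counter writes them, in an unstranded, a forward and a reverse column. Per the submitters' processing notes, fastp, STAR 2.7.10a and DESeq2 1.38.0 were used, and GRCm38 and GRCm39 are both named; which annotation was counted is not stated there. The tables as used hold 1933 to 1943 gene rows, a part of each library. Library size was therefore derived from the summary rows (reads over features of 1 strand only, minus those ambiguous on either strand column). It is a lower limit, and the upper one lies 2.51% to 2.65% above it. The shared rows held 3.22% to 3.28% of these reads in KO and 3.20% to 3.25% in fl/fl, and the TMM factors rest on the 420 genes kept among them. Symbols were found for 1830 of the 1933 shared rows.

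The unstranded (either-strand) counts went into edgeR 4.0.16 (R 4.3.3) with filterByExpr, TMM, quasi-likelihood F test on genotype, Benjamini-Hochberg over 420 genes, threshold 0.05. The script was tested on simulated data. No pair of libraries of 1 group agreed within sampling noise (chi-square test, largest p = 2.59e-07 in KO and 2.21e-07 in fl/fl). Beyond counting error, the coefficient of variation that edgeR fitted between libraries was 2.53% over the genes kept. Whether that spread is technical was not tested. Named genes are the members, pathway genes kept, markers called or at 5 CPM or more, and the 5 profiles most like Dpt, of which 1 is not reported here; Gpr35, Tmeff2, genes near Dpt and list genes with few or 0 reads were named after their values were seen. The members and lists were chosen with earlier results of these data known. Alternatives covered scaling, library size, filter, DESeq2 1.42.0, strand columns, each library left out and a replicate block.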

Additional observations from a re-analysis of the deposited data

Results flagged for a closer look

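In groups of 4 libraries, a value counted as lying apart when its distance from the next library, as a share of the group's whole range, passed Dixon's critical value at 95% for 4 values. Chance gives about 1 in 20 groups. Of 36 groups tested over 18 genes, 3 were picked out, 2 of them in fl/fl replicate 4. Those 2 belong to Col6a3 and Aox1, which were also named for a profile like that of Dpt, with fl/fl replicate 4 low. Aox1 was among the 18 genes only through that likeness. The number picked out is thus partly fixed by the choice of genes, and groups of different genes share libraries. For Dpt that share was 79.2% in fl/fl replicate 4, a little short of the critical value, while the values picked out had shares of 83.2% or more. In fl/fl replicate 4, Col6a3 stood at 16.83 CPM against 22.28 to 22.86 CPM in the other fl/fl libraries, and Aox1 at 5.781 CPM against 8.788 to 9.365 CPM. In fl/fl replicate 1, Cd34 stood at 86.24 CPM against 79.38 to 80.53 CPM.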

How the results depend on the processing

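The log2 fold change of Dpt ran from -1.58 to -1.36 over 17 alternatives, all within 1 SD of replicates from -1.47. The 158 changed genes were 120 to 191 under 17 alternatives and 108 with adjusted p under 0.01. Leaving out 1 library gave 132 to 191. Of the 3 chain enzyme genes, 2 fell; this was 1 with upper-quartile scaling, 1 with library totals alone and 0 with reverse-strand counts (edgeR, adjusted p under 0.05). The 1 changed TGF-beta family gene became 0 with reverse-strand counts, while its call was kept with forward-strand counts. These strand columns hold about equal numbers of reads, and the cause of the lost calls was not tested. The 3 collagens and Qsox1 kept their calls under all 17. The replicate numbers did not pair the libraries: deviations of same-numbered libraries correlated at -0.16, 0.13, -0.11 and -0.04, and with the replicate block 150 genes changed, Dpt stood at -1.47 and no call of a named list gene changed. Alternatives for Cd34 and for genes near Dpt were chosen after seeing the data. Dpt rests on 133 to 376 reads per library.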

Other observations

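The genes that neighbour Dpt on the chromosome were examined after the data had been seen. In GENCODE M21, 49 of the shared rows lie within 1 Mb of Dpt, and 16 of them passed the filter on low counts. In KO, 2 rose and 2 fell (edgeR quasi-likelihood test, adjusted p under 0.05), which is 25.0% of 16 genes, against 37.6% of all 420. Their median log2 fold change was -0.016, and the lowest was -0.21, against -1.47 for Dpt. Atp1b1, the beta-1 subunit of the sodium pump, rose to 44.37 ± 1.496 CPM in KO against 32.85 ± 1.62 CPM in fl/fl (edgeR adjusted p = 1.19e-08, n = 4 each), and its call held under 17 of 17 alternatives. Blzf1, a gene for a Golgi protein, rose to 35.46 ± 0.816 CPM in KO against 32.30 ± 0.510 CPM in fl/fl (edgeR adjusted p = 0.0136). Creg1, a gene for a secreted glycoprotein, fell to 17.23 ± 0.231 CPM in KO against 19.93 ± 1.75 CPM in fl/fl (edgeR adjusted p = 0.0104), and Tiprl fell to 70.80 ± 1.75 CPM in KO against 76.17 ± 1.71 CPM in fl/fl (edgeR adjusted p = 0.0121). The calls for Blzf1, Creg1 and Tiprl were lost under 1, 3 and 5 of the 17 alternatives, where their adjusted p reached 0.614, 0.159 and 0.201. Of the 12 genes that did not pass, Sft2d2, Ccdc181 and Nme7 were called higher in KO under 3, 2 and 1 of the 17 alternatives, with adjusted p down to 0.0106, 0.00496 and 0.00946.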
